A study of Rattus norvegicus with 36 samples.

Results

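The growth hormone and insulin-like growth factor (IGF) axis was followed through the RNA of rat skeletal muscle after resisted contractions, as the signals of every probe set whose platform symbol is Igf1, Igf2, Igf1r, Igfbp3, Igfbp4, Igfbp5, Igfbp6 or Ghr. That rule found 22 of the 8740 probe sets that are not array controls: 5 for Igf1, 6 for Igf2, 2 for Igf1r, 2 for Igfbp3, 3 for Igfbp5, 1 for Igfbp6 and 3 for Ghr. No probe set bore the symbol Igfbp4, which was not analysed here. The rule used no measured value, but the members were chosen with earlier results of these data known.

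The 36 one-colour arrays fall into 6 groups by title. Muscle taken 6 h after the contractions gave 8 arrays of polysomal RNA (messages loaded on ribosomes) and 8 arrays titled without a fraction, called total RNA here from the molecule label. Muscle taken 1 h after them gave 4 arrays of polysomal RNA and 4 of total RNA. The references are 8 arrays of a polysomal control, whose labels name no contractions and a collection at 1 h, and 4 arrays of a control titled 1hr polysome, whose description names no polysomes. Each number in a title has 2 arrays, so these groups hold 4, 4, 2, 2, 4 and 2 numbers, in the order given. The source label names the muscle only as "ta", and strain, age, sex and the number of animals are not given in the sources used here. No control group is labelled as total RNA throughout. Of the fast fibre markers 11 of 12 listed genes were tested. The fast myosin Myh4 had 14401 to 52033 signal units and was above the floor on all 36 arrays. Ckm was above it on 15 arrays, Acta1 on 30 and Pvalb on 34, and the other tested ones on all 36. Slow fibre markers were bright too, with a median of 21711 for Myl3.

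Growth hormone from the pituitary binds its receptor Ghr and, through Jak2 and Stat5, raises Igf1 transcription in liver and in muscle itself. The ligands Igf1 and Igf2 bind the tyrosine kinase receptor Igf1r, which drives protein synthesis through phosphoinositide 3-kinase and Akt. The binding proteins hold the ligands in plasma and in the matrix: Igfbp3 is the main carrier in blood, Igfbp5 binds matrix and is produced by differentiating muscle cells, and Igfbp6 prefers Igf2. Local Igf1 and Igf2 are known for their part in the growth and repair of loaded muscle.

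Windows of 100 bases before a start are shown for Igf1, Igfbp3, Igfbp5 and Igfbp6. These genes were chosen by the mean signal of their brightest probe set, as described further on. Over all arrays, in these genes and in no other member, it was higher in polysomal than in total RNA at both times. Of these differences only that of Igfbp3 at 6 h was called. Without the arrays that stood apart, described below, Ghr S49003_s_at was higher at both times too (0.31 at 6 h and 1.69 at 1 h). M15481_at and X06107_i_at of Igf1, M31837_at of Igfbp3 and M62781_at of Igfbp5 were lower at both times over all arrays. D00698_s_at of Igf1 and rc_AI070577_at of Igfbp5 were higher. The windows come from RefSeq on the GRCr8 build and are read 5′ to 3′ on the gene's strand. Those of Igfbp3, Igfbp5 and Igfbp6 lie directly before the first base of the annotated gene. The Igf1 window lies inside the annotated gene, chr7:24169608-24249446, so the start used there is an internal one. The bases before the first base of Igf1 were not searched. Capitals mark the matches to the letters TATATA or TATAAA or CAGCTG, searched on both strands; no match overlapped another.
Igf1, chr7:24172432-24172531, plus strand: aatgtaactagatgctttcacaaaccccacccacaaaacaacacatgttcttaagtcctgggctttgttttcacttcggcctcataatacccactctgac
Igfbp3, chr14:86277945-86278044, minus strand: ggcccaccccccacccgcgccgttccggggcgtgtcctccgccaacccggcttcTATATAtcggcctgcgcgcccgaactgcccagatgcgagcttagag
Igfbp5, chr9:81914188-81914287, minus strand: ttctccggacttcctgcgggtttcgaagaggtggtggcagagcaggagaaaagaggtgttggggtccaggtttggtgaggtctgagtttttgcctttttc
Igfbp6, chr7:135154819-135154918, plus strand: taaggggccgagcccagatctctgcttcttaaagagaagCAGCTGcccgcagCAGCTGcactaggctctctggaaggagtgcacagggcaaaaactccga
The Igfbp3 window held TATATA 46 bases before the start, and the Igfbp6 window held CAGCTG, an E-box core, at 61 and 48 bases before it. The Igf1 and Igfbp5 windows held none of the 3 motifs. Among 33469 RefSeq promoter windows of this length, TATATA was held by 2.345%, and TATAAA was held by 5.781%, and CAGCTG by 5.306%. The motifs were chosen after these sequences were seen, and a match is a description of letters, not of a bound site.

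Some arrays stood apart from their labels over all probe sets. Each array was correlated with the 1 h total and the 1 h polysomal arrays. The arrays labelled 6 h total of numbers 1 and 2 averaged r = 0.936 to 0.945 with 1 h total RNA and 0.878 to 0.886 with 1 h polysomal RNA. For number 3 the order was turned, at 0.799 to 0.805 with total and 0.845 to 0.847 with polysomal RNA, and for number 4 too, at 0.900 to 0.903 and 0.926 to 0.928. The beta-actin 3′ to 5′ ratio, a sign of RNA integrity, was 9.01 to 11.5 on the arrays of number 3. It was 1.09 to 1.25 on those of number 4 and 1.01 to 1.58 on those of numbers 1 and 2. In the control titled 1hr polysome, the array 2bA correlated at 0.932 with total and 0.890 with polysomal RNA, while the other 3 arrays gave 0.889 to 0.904 and 0.935 to 0.942. Counts of members called are given with and without them, and values without them, or within 6 h numbers 1 and 2, stand beside the named differences that they moved. The arrays were picked by their likeness to the 1 h fractions, so calls without them describe the remaining arrays and are no independent test.

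Signals are the deposited intensities on a linear scale, with a floor at 129.5 signal units, the 40th percentile of all values. Differences are on the log2 scale after the floor, over numbers and not arrays, and a call is an adjusted p under 0.05 from limma, Benjamini-Hochberg adjusted over the 6707 probe sets tested. Of the 22 probe sets 21 were tested. The Igf2 probe set X16703_i_at, above the floor on 1 of 36 arrays, was not. Signals of different probe sets are not set against each other. The labels do not say whether numbers are separate animals, so the p-values cover the spread among these preparations, part of which may be technical. In whole muscle, fewer cells of a type and less RNA per cell cannot be told apart.

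Igf1 was brightest on M15481_g_at, which was above the floor on all 36 arrays. Its signals had a low of 283.8, a median of 1048 and a high of 1512 in 6 h polysomal RNA, against 459.7, 684.3 and 986.8 in 6 h total RNA. In 1 h polysomal RNA they were 971.0, 841.1, 1147 and 1184, and in 1 h total RNA 548.1, 736.6, 547.4 and 810.9. The polysomal control ran from 776.4 to 1531 with a median of 1106, and the control titled 1hr polysome gave 820.8, 743.4, 862.5 and 832.4. All 4 arrays of 1 h polysomal RNA were above the 4 of 1 h total RNA, while at 6 h the fractions overlapped. The polysomal minus total difference was 0.43 at 6 h (SE 0.229, adjusted p = 0.237), or 0.29 without the arrays that stood apart (SE 0.283, adjusted p = 0.536), and 0.66 at 1 h (SE 0.323, adjusted p = 0.343). After the contractions the polysomal difference from control was −0.29 at 6 h (SE 0.229) and 0.34 at 1 h (SE 0.323), both with an adjusted p of 1 in limma.

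The other Igf1 probe sets gave a noisier picture. X06107_r_at was above the floor on all arrays, with geometric means of 543.5 in 6 h polysomal RNA and 642.8 in the polysomal control, whose arrays ran from 256.3 to 2184. The arrays of 1 number differed widely for M15481_at: 623.0 and 84.05 in 6 h polysomal number 1, and 1128 and 413.9 in 1 h total number 1. D00698_s_at and X06107_i_at were above the floor on 12 and 16 of 36 arrays. Over the 18 numbers the correlation of Igf1 probe sets with each other ran from −0.51 for M15481_at with M15481_g_at to 0.63 for D00698_s_at with X06107_r_at, and the 5 probe sets share no single pattern.

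Igf2, the ligand best known from fetal growth, was brightest on X17012mRNA_s_at. It had a low of 992.5, a median of 1390 and a high of 2236 in 6 h polysomal RNA, against 1925, 2342 and 3111 in 6 h total RNA. At 1 h it had 1769, 1818, 1683 and 1604 in polysomal RNA, against 2770, 2928, 3163 and 2466 in total RNA. Every 1 h total array was above every 1 h polysomal array, and at 6 h only the arrays of polysomal number 1 reached into the range of total RNA. Its difference, polysomal minus total, was −0.66 at 6 h (SE 0.197, adjusted p = 0.0492 in limma), which makes it 1 of the 2 members called there.

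That call was a narrow one. It held in 7 of 24 alternative settings, over which the difference ran from −0.85 to −0.51 and the adjusted p from 0.0151 to 0.193. Leaving out 6 h polysomal number 2, 3 or 4, or 6 h total number 1, 2 or 3, ended it. Within numbers 1 and 2 the difference was −0.69 (adjusted p = 0.193), and within numbers 3 and 4 it was −0.63 (adjusted p = 0.0792). At 1 h the difference was −0.72 (SE 0.278, adjusted p = 0.22), which missed the threshold. Relative to the median of all probe sets, which was itself −0.163 at 6 h, the 6 h difference was −0.50.

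The other Igf2 probe sets had values on the same side with 1 exception. M17960_g_at, above the floor on all arrays, had a 6 h difference of −0.54 (SE 0.167, adjusted p = 0.0553), and −0.36 at 1 h (adjusted p = 0.52). M17960_at had −0.31 at 6 h and −0.43 at 1 h, and the dim X16703_r_at −0.13 and −0.22, none of them called. Without the arrays that stood apart the 6 h values were −0.54 for M17960_at (adjusted p = 0.0531) and −0.30 for X16703_r_at (adjusted p = 0.0333). E00988mRNA_s_at went the other way at 6 h, with 0.71 (SE 0.418, adjusted p = 0.29). It was above the floor on 5 of 8 arrays of 6 h polysomal RNA and 7 of 8 of the polysomal control, and on none of the 1 h arrays of either fraction after contraction. Its highest signal, 1082, lay in number 2 of the polysomal control.

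**Figure D1:**
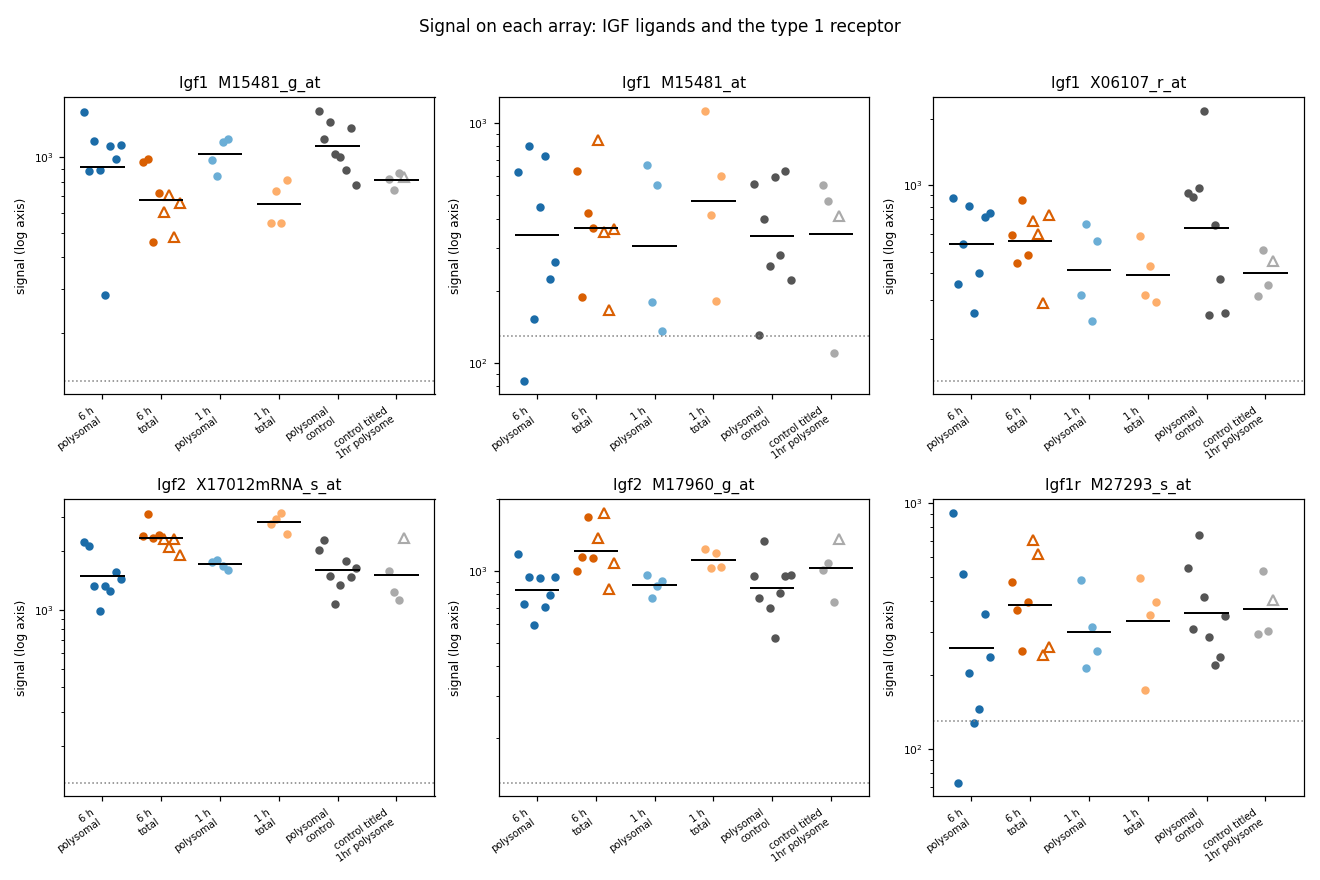
Signal of each array (log axis) for probe sets of Igf1, Igf2 and Igf1r in the 6 groups; points are arrays, lines are geometric means after the floor, the dotted line is the floor of 129.5, and open triangles are the arrays that stood apart (6 h total numbers 3 and 4, control array 2bA). Igf2 X17012mRNA_s_at sits higher in both total RNA groups, with medians of 2342 at 6 h and 2849 at 1 h, than in 6 h and 1 h polysomal RNA, with medians of 1390 and 1726.

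The type 1 receptor Igf1r was followed by M27293_s_at, above the floor on 34 of 36 arrays. It had a low of 72.93, a median of 219.6 and a high of 911.2 in 6 h polysomal RNA, against 240.8, 381.4 and 706.0 in 6 h total RNA and 218.4, 327.3 and 739.2 in the polysomal control. The spread within the 6 h polysomal group covered the ranges of the other groups. Its 6 h fraction difference was −0.58 (SE 0.337, adjusted p = 0.287), and its difference from the polysomal control −0.47 (SE 0.337, adjusted p = 1). L29232_at, above the floor on 14 arrays, had −0.37 (−0.64 without the arrays that stood apart) and −0.22 in the same comparisons, and r = 0.22 with M27293_s_at over the 18 numbers.

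Igfbp3 had the lowest adjusted p among the members, on rc_AI009405_s_at. The signals of 6 h polysomal RNA were 842.0, 948.1, 1041, 1155, 784.9, 932.1, 1689 and 1878, against 552.1, 640.1, 355.2, 297.0, 258.0, 526.2, 358.0 and 364.3 in 6 h total RNA. In 1 h polysomal RNA they were 582.4, 725.0, 614.5 and 622.4, against 186.9, 293.9, 129.8 and 224.9 in 1 h total RNA. At both times every polysomal array was above every total array. The difference was 1.47 at 6 h, or 2.76-fold (SE 0.285, adjusted p = 0.00764 in limma), and 1.66 at 1 h, or 3.17-fold (SE 0.402, adjusted p = 0.0818). Relative to the median of all probe sets the 6 h value was 1.63.

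The 6 h call of Igfbp3 held in 23 of 24 alternative settings, with differences from 1.17 to 1.76. It was 1.17 within numbers 1 and 2 (adjusted p = 0.0289) and 1.76 within numbers 3 and 4 (adjusted p = 0.0792), and 1.33 with both sets of arrays that stood apart left out (adjusted p = 0.0215). At 1 h the numbers as a block, with the same 1.66, gave an adjusted p of 0.0421, and the model without the arrays that stood apart 0.028.

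No comparison between polysomal groups called Igfbp3. The geometric means of rc_AI009405_s_at were 1105 in 6 h polysomal RNA, 1031 in the polysomal control, 772.0 in the control titled 1hr polysome, 633.9 in 1 h polysomal RNA, 400.4 in 6 h total RNA and 200.1 in 1 h total RNA. Between neighbours in that order for which a comparison was made, 6 h polysomal minus polysomal control was 0.10 (SE 0.285), the polysomal control minus the control titled 1hr polysome 0.42 (SE 0.348), and 1 h polysomal minus its control −0.28 (SE 0.402). Without the control array 2bA the second of these was 0.10 (adjusted p = 0.995) and the third −0.60 (adjusted p = 0.784). The 6 h minus 1 h difference was 1.001 in total RNA (SE 0.348, adjusted p = 0.553) and 0.80 in polysomal RNA (SE 0.348, adjusted p = 0.838). The second Igfbp3 probe set, M31837_at, did not share the pattern: it had −0.04 between the fractions at 6 h and −0.24 at 1 h (adjusted p = 0.937 and 0.88), and r = 0.09 with rc_AI009405_s_at over 18 numbers. Without the 6 h total arrays that stood apart its 6 h value was −0.52 (SE 0.214, adjusted p = 0.106).

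Igfbp6, which had 1 probe set, lay in the same direction. At 1 h its signals were 2311, 2646, 2845 and 2682 in polysomal RNA, against 1686, 1319, 1355 and 998.2 in total RNA, with no overlap. At 6 h they had a low of 1996, a median of 2617 and a high of 5192 in polysomal RNA, against 1446, 1910 and 2309 in total RNA, and the ranges overlapped. The differences were 0.99 at 1 h (SE 0.372, adjusted p = 0.209) and 0.64 at 6 h (SE 0.263, adjusted p = 0.137), neither called. Within the 6 h set the value was 0.22 for numbers 1 and 2 and 1.05 for numbers 3 and 4 (adjusted p = 0.588 and 0.0936). The polysomal control ran from 1719 to 4170, against 1297 to 2024 in the control titled 1hr polysome, a difference of 0.84 (SE 0.322, adjusted p = 0.89).

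Igfbp5 was told apart by its probe sets. On rc_AI029920_s_at, 6 h polysomal RNA had 1229, 734.8, 2859, 3271, 1703, 1273, 2253 and 2005, against 122.2, 345.1, 272.8, 273.2, 1624, 1406, 598.0 and 1030 in 6 h total RNA, the last 4 of which are numbers 3 and 4. At 1 h the signals were 1581, 1170, 1052 and 956.6 in polysomal RNA, against 267.0, 236.2, 440.8 and 485.5 in total RNA. Of the total RNA arrays, 3 of numbers 3 and 4 at 6 h reached into the polysomal range. The difference was 1.76 at 6 h (SE 0.544, adjusted p = 0.0567) and 1.78 at 1 h (SE 0.769, adjusted p = 0.277). Within numbers 1 and 2 at 6 h it was 2.83 (SE 0.606, adjusted p = 0.0165), and within numbers 3 and 4 it was 0.70 (SE 0.486, adjusted p = 0.408).

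The reverse was seen on M62781_at, also annotated to Igfbp5. Its 6 h total signals were 303.5, 338.5, 432.6 and 412.3 in numbers 1 and 2 but 94.30, 83.13, 46.13 and 63.18 in numbers 3 and 4, under the floor. In 6 h polysomal RNA 1 of 8 arrays was above the floor, at 135.8, and in 1 h polysomal RNA none was. The polysomal minus total difference was −0.74 over all numbers (SE 0.316, adjusted p = 0.146), −1.51 within numbers 1 and 2 (adjusted p = 0.00579) and 0.02 within numbers 3 and 4. Of all probe sets 16.2% were called within numbers 1 and 2, and 1.09% within numbers 3 and 4. Within numbers 1 and 2 all polysomal arrays lay under the floor, so total RNA was at least 2.84-fold higher than polysomal RNA there. At 1 h the floored signals gave 2.03-fold (adjusted p = 0.283 in limma), which is no strict bound, as only 3 of 4 total arrays were above the floor.

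The array 2bA of the control titled 1hr polysome carried the same split in part. On rc_AI029920_s_at it had 183.4, while the other 3 arrays of that control had 2594, 1094 and 3416. The third Igfbp5 probe set, rc_AI070577_at, was above the floor on 4 of 8 arrays in 6 h polysomal RNA and on no array of total RNA at either time. Over the 18 numbers rc_AI029920_s_at had r = 0.64 with rc_AI070577_at and −0.75 with M62781_at. The files give no positions of probes within the gene, and what sets the Igfbp5 probe sets apart was not tested.

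The probe sets of the growth hormone receptor Ghr also disagreed. On S49003_s_at, 6 h polysomal RNA had 1448, 915.7, 1716, 1839, 1518, 1906, 1786 and 1749, against 1044, 1521, 1250 and 1309 in numbers 1 and 2 of 6 h total RNA and 4235, 3216, 2784 and 2656 in its numbers 3 and 4. At 1 h polysomal RNA had 2945, 2556, 2115 and 2489, against 335.8, 1271, 866.7 and 976.6 in total RNA. The 1 h fractions did not overlap, whereas at 6 h no polysomal array reached numbers 3 and 4 of total RNA and 5 of 8 lay above its numbers 1 and 2. The difference was 1.69 at 1 h (SE 0.446, adjusted p = 0.101) and −0.35 at 6 h (SE 0.315, adjusted p = 0.493). Its 6 h sign turned without the total arrays of numbers 3 and 4, at 0.31 (SE 0.247, adjusted p = 0.428). Within the 6 h numbers it was 0.17 for 1 and 2 and −0.87 for 3 and 4 (adjusted p = 0.732 and 0.0821).

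Z83757mRNA_at ran the opposite way. In 6 h total RNA it had 490.2, 785.8, 636.8 and 574.3 in numbers 1 and 2, and 36.87, 23.68, 81.59 and 26.09 in numbers 3 and 4. In 6 h polysomal RNA 1 of 8 arrays was above the floor, at 178.3. At 1 h it had 175.3, 268.0, 47.90 and 133.7 in polysomal RNA, against 746.8, 815.4, 516.2 and 460.1 in total RNA. The difference was −1.06 at 6 h over all numbers (SE 0.449, adjusted p = 0.144), −2.13 within numbers 1 and 2 (SE 0.303, adjusted p = 0.00344) and −1.87 at 1 h (SE 0.635, adjusted p = 0.163). In numbers 3 and 4 both fractions were at the floor.

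Z83757mRNA_g_at, the companion probe set, followed it with r = 0.81 over 18 numbers, while S49003_s_at had −0.63 with Z83757mRNA_at. No polysomal array after contraction was above the floor on Z83757mRNA_g_at, so 6 h total RNA of numbers 1 and 2 was at least 1.78-fold higher than polysomal RNA (adjusted p = 0.0152), and 1 h total RNA at least 1.201-fold (adjusted p = 0.73). The control array 2bA had 955.8 on Z83757mRNA_at, against 211.8, 319.2 and 143.2 on the other 3 arrays of its group.

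**Figure D2:**
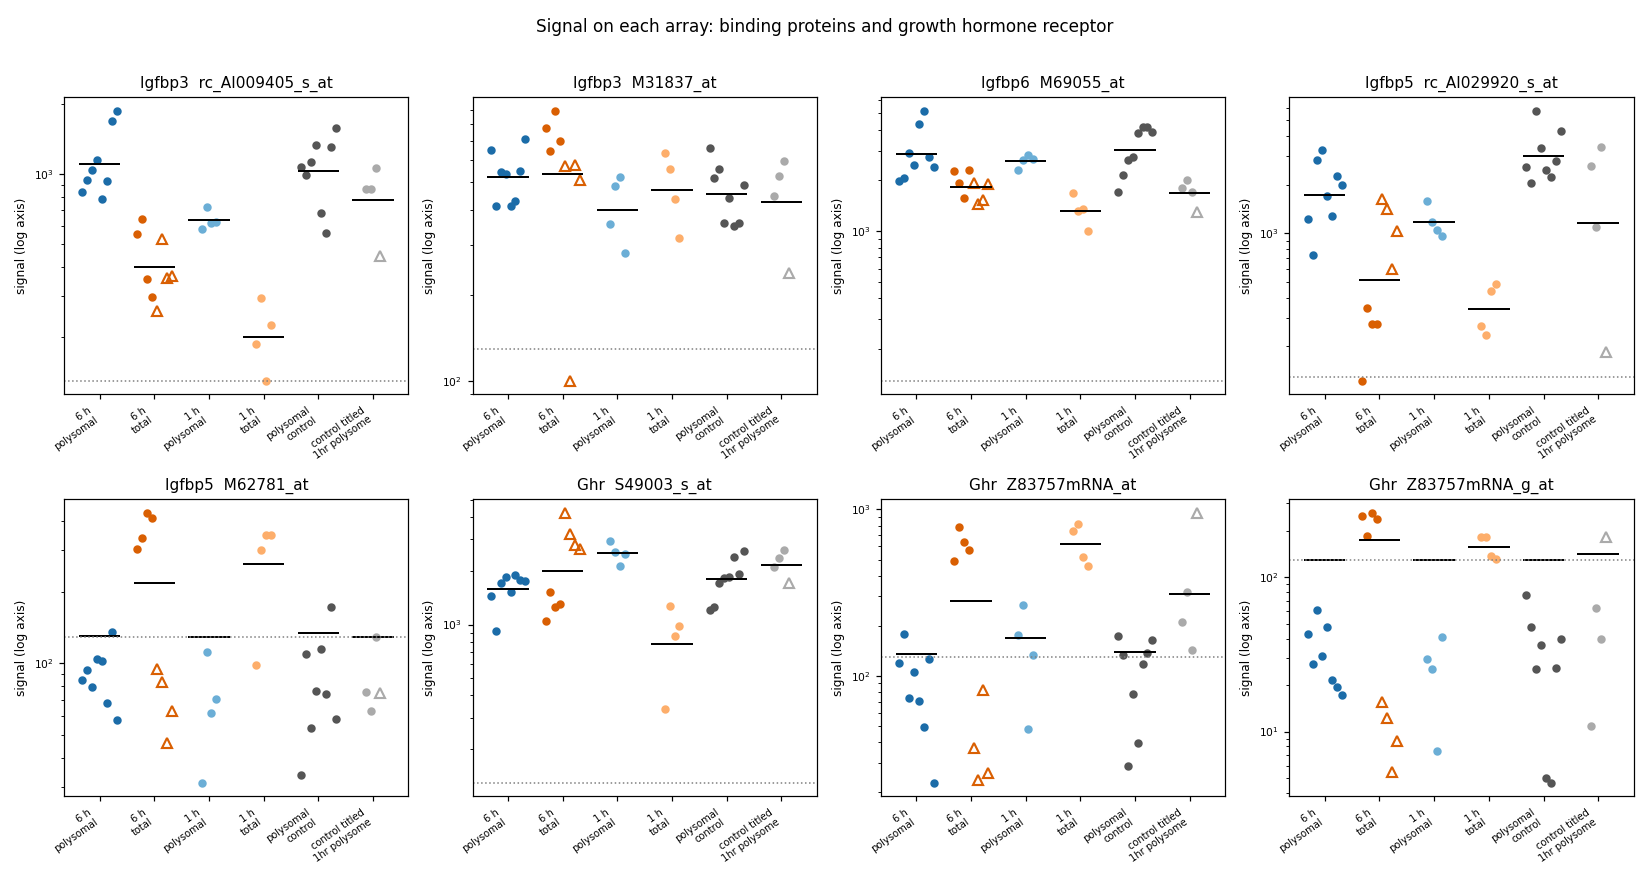
Signal of each array (log axis) for probe sets of the binding proteins and the growth hormone receptor in the 6 groups; points are arrays, lines are geometric means after the floor, the dotted line is the floor of 129.5, and open triangles are the arrays that stood apart. For Igfbp3 rc_AI009405_s_at all polysomal arrays after contraction lie above the total RNA arrays of the same time, and for Igfbp5 M62781_at and Ghr Z83757mRNA_at the triangles of 6 h total RNA lie with the polysomal arrays.

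**Figure D3:**
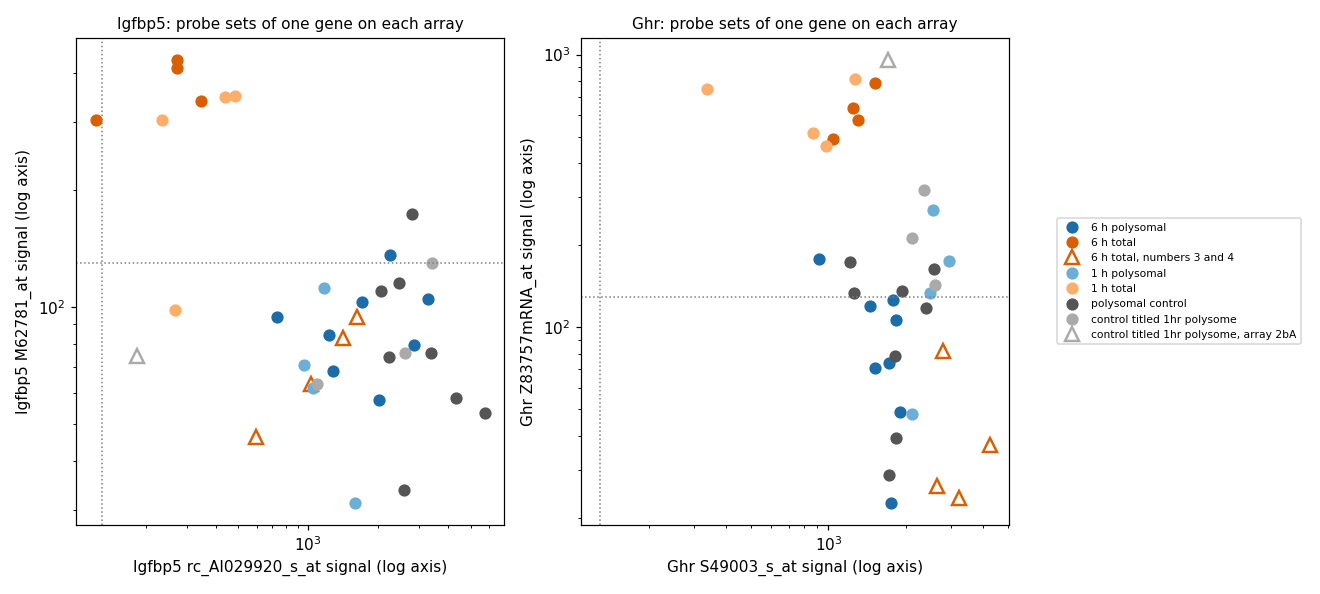
Each point is an array, with the signal of 1 probe set of Igfbp5 (left) or Ghr (right) against another probe set of the same gene, both axes logarithmic, dotted lines at the floor of 129.5. Over 18 numbers r was −0.75 for the Igfbp5 pair and −0.63 for the Ghr pair, and the 1 h total arrays and the 6 h total arrays of numbers 1 and 2 lie toward the upper left, except 1 array at 98.11 on M62781_at.

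No member of the axis was called after the contractions in polysomal RNA. In 6 h polysomal RNA against the polysomal control 0 of 21 members were called, at a background of 0.343% of all probe sets, and 0 had an unadjusted p under 0.05, against 5.67% of all probe sets. Their differences ran from −0.79 for Igfbp5 rc_AI029920_s_at (SE 0.544) to 0.19 for Igfbp3 M31837_at (SE 0.28), with a median of −0.05 beside −0.03 over all probe sets. In 1 h polysomal RNA against the control titled 1hr polysome again 0 of 21 members were called, at a background of 0%, and 0 had an unadjusted p under 0.05, against 4.46% of all. There they ran from −0.88 for Ghr Z83757mRNA_at (SE 0.635) to 0.63 for Igfbp6 (SE 0.372), with a median of 0.01 beside −0.03. Without the control array 2bA the same differences ran from −1.04 for Igfbp5 rc_AI029920_s_at to 0.53 for Igfbp6, again with 0 calls and 0 unadjusted p under 0.05. The Igfbp5 value was 0.02 with that array, and Ghr Z83757mRNA_at had −0.19 without it. The adjusted p was 1 for each member in both comparisons on all arrays, and a p that misses the threshold does not show that the levels were equal.

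The 6 h response minus the 1 h response in polysomal RNA had 0 calls among the members and 0 unadjusted p under 0.05. The same 21 members gave 0 calls between the controls (1 unadjusted p under 0.05, Igfbp6) and 0 in 6 h against 1 h polysomal RNA (1 unadjusted, Igfbp3 rc_AI009405_s_at), at backgrounds of 0%. Between the controls, polysomal minus the one titled 1hr polysome, Igfbp5 rc_AI029920_s_at had 1.38 (SE 0.666) with array 2bA and 0.33 without it, and Ghr Z83757mRNA_at −1.15 (SE 0.55) and −0.47. Without the arrays that stood apart these comparisons again had 0 calls among the members.

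**Figure D4:**
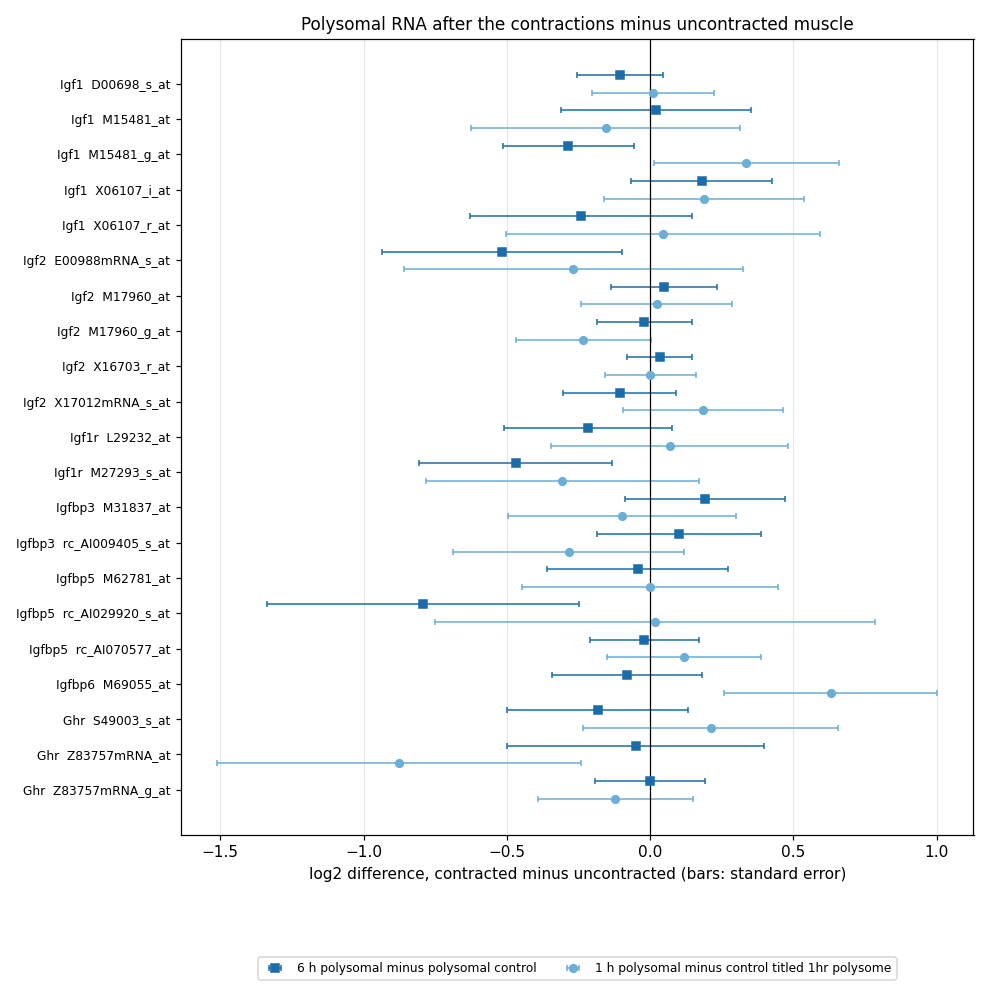
Log2 difference of polysomal RNA after contraction minus control (x axis) for the 21 tested probe sets, at 6 h (squares) and at 1 h (circles), with bars of 1 standard error. All arrays are included. The values spread around 0 between −0.88 and 0.63, and none was called.

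Between the fractions 2 of 21 members were called at 6 h, Igfbp3 rc_AI009405_s_at (higher in polysomal RNA) and Igf2 X17012mRNA_s_at (lower), at a background of 8.77% of all probe sets (3.77% higher and 4.99% lower), so the share is near that of the arrays as a whole. An unadjusted p under 0.05 was had by 8 of 21, against 26.5% of all probe sets. At 1 h 0 of 21 were called at a background of 0.388%, and 7 of 21 had an unadjusted p under 0.05, against 15.8% of all. The direction of all calls at 6 h depended on the scaling: 253 probe sets were higher and 335 lower with the deposited scaling, 312 and 175 after quantile normalisation, and 334 and 139 after scaling to the 75th percentile. Both called members kept their sign under each scaling, and Igf2 X17012mRNA_s_at lost its call with the 75th percentile, at −0.51 (adjusted p = 0.113).

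With 6 h total numbers 3 and 4 and the control array 2bA left out, 7 of 21 members were called between the fractions at 6 h, at a background of 21.7% (6.66% higher and 15% lower). Those higher in polysomal RNA were Igfbp3 rc_AI009405_s_at and Igfbp5 rc_AI029920_s_at, the second at 2.85 (SE 0.454, adjusted p = 0.000812). Those lower were Igf2 X17012mRNA_s_at and X16703_r_at, Igfbp5 M62781_at and Ghr Z83757mRNA_at and Z83757mRNA_g_at, from −2.18 to −0.30. At 1 h 4 of 21 were called, at a background of 8.83% (2.68% higher and 6.14% lower): Igfbp3 rc_AI009405_s_at and Ghr S49003_s_at higher, and Igfbp5 M62781_at and Ghr Z83757mRNA_at lower. The same 1 h arrays entered both fits, which differed in the estimate of the spread. The beta-actin 3′ to 5′ ratio moved with the fractions, at 2.54 to 4.48 in 6 h polysomal RNA against 1.01 to 1.58 in 6 h total RNA of numbers 1 and 2, and at 2.003 to 4.28 in 1 h polysomal RNA against 1.22 to 1.62 in 1 h total RNA. Its part in these differences was not tested.

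**Figure D5:**
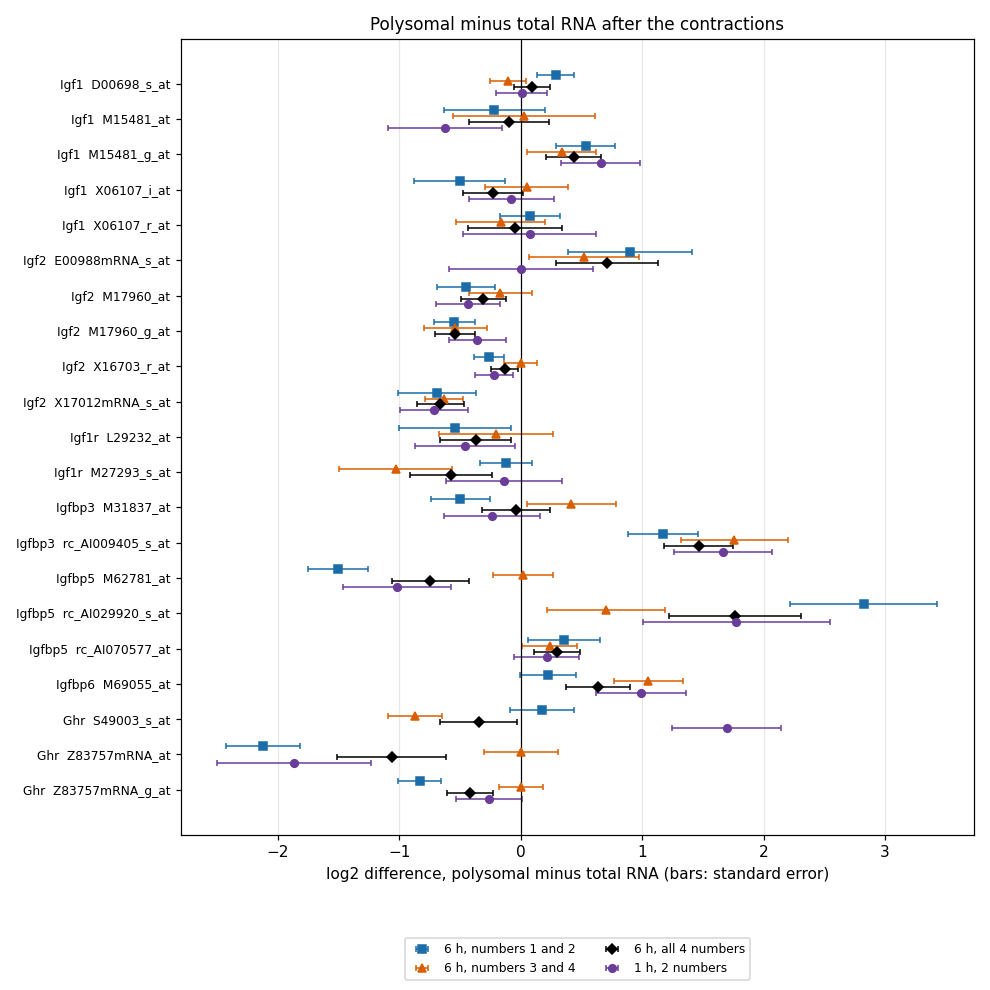
Log2 difference of polysomal minus total RNA (x axis) for the 21 tested probe sets, at 6 h within numbers 1 and 2 (squares), within numbers 3 and 4 (triangles) and over all 4 (diamonds), and at 1 h (circles), with bars of 1 standard error. Igfbp3 rc_AI009405_s_at lies to the right in all 4 estimates, from 1.17 to 1.76, while Igfbp5 M62781_at and Ghr Z83757mRNA_at lie at 0 within numbers 3 and 4 and at −1.51 and −2.13 within numbers 1 and 2.

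The test of whether the fraction difference itself changed from 1 h to 6 h gave no member a call, at a background of 0%. Ghr S49003_s_at had the smallest p among the members, with −2.04 for 6 h minus 1 h (SE 0.546, unadjusted p = 0.00199, adjusted p = 0.849), and −1.38 without the arrays that stood apart (SE 0.377, adjusted p = 0.262). Within numbers 3 and 4 of the 6 h set this value was −2.56 and was called, as were 1.91% of all probe sets. The total arrays of these numbers are those that stood apart. Within numbers 1 and 2, where the 6 h fraction difference of S49003_s_at was 0.17, this test called no member. In 6 h against 1 h total RNA 0 of 21 members were called, at a background of 0.0596%, and 0 with the arrays that stood apart left out, at 0.716%. The widest member difference there was that of Ghr S49003_s_at, 1.37 (SE 0.386, adjusted p = 0.472), and it was 0.71 without the 6 h arrays of numbers 3 and 4 given above (SE 0.285, adjusted p = 0.451).

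Total RNA at 1 h was also set against the control titled 1hr polysome, a comparison in which contraction and fraction cannot be told apart. No member was called, at a background of 0.0745%. Igfbp3 rc_AI009405_s_at had −1.95 (SE 0.402, adjusted p = 0.0879), Ghr S49003_s_at −1.48 (adjusted p = 0.243) and Igf2 X17012mRNA_s_at 0.90 (adjusted p = 0.243). The 1 h total arrays are those of the 1 h fraction comparison, so both share them. With both sets of arrays left out 7 of 21 were called, at a background of 13.9% (9.12% higher and 4.8% lower), 4 higher and 3 lower in 1 h total RNA. The higher ones were Igf2 M17960_at (0.73) and X17012mRNA_s_at (1.17), Igfbp5 M62781_at (1.02) and Ghr Z83757mRNA_at (1.68). The lower ones were Igfbp3 rc_AI009405_s_at (−2.26), Igfbp5 rc_AI029920_s_at (−2.82) and Ghr S49003_s_at (−1.64). Probe sets of Igfbp5 and of Ghr were thus called in both directions.

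Over the 18 numbers the brightest probe sets of the binding proteins varied together, as a description of groups that differ in fraction and of arrays that share it. M31837_at of Igfbp3 and M62781_at of Igfbp5 did not follow the brightest probe set of their gene (r = 0.09 and −0.75). By the brightest probe set of each gene Igfbp3 had r = 0.74 with Igfbp5 and 0.63 with Igfbp6, and Igfbp5 had 0.57 with Igfbp6. Igf2 ran against them, at −0.74 with Igfbp3, −0.80 with Igfbp5 and −0.68 with Igfbp6. Igf1 had r = 0.68 with Igfbp3 and 0.02 with Ghr, and Igf1r ran from −0.53 with Igfbp6 to 0.30 with Igf1.

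Among 3902 other genes, those most alike over the 18 numbers by Pearson correlation of log2 signals were Snap23, Mef2d and Git1 for Igf2 (r = 0.91, 0.87 and 0.85) and Plpp3, Rab14 and Wdfy1 for Igfbp3 (0.86, 0.85 and 0.85). For Igfbp5 they were Map2k2, Ndufs4 and Psmb1 (0.94, 0.93 and 0.92), for Igfbp6 the collagen cross-linking enzyme Lox, Cavin3 and the chemokine Cxcl14 (0.86, 0.85 and 0.84), and for Ghr the muscle caveolin Cav3, Mta1 and Tbxa2r (0.82, 0.81 and 0.81). Igf1 was nearest to Ivd, Hist1h2af and Map3k1 (0.85, 0.83 and 0.82), and Igf1r to Ptgfr, Anpep and Hsf1 (0.82, 0.82 and 0.79).

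The wider pathway was read from 3 gene lists, each gene by its brightest probe set. Of the other IGF ligands, receptors and binding proteins 9 of 18 genes were tested, of growth hormone signalling 19 of 24, and of insulin and IGF receptor signalling 28 of 50. In both comparisons of contracted with control polysomal RNA none of these genes was called, at gene backgrounds of 0.384% at 6 h and 0% at 1 h. Between the fractions at 6 h only the receptor signalling list had calls, at a gene background of 9.38%. The kinases Gsk3b, which Akt inhibits, and Pdpk1, which activates Akt, were higher in polysomal RNA, by 1.64 (SE 0.335, adjusted p = 0.0103) and 1.02 (SE 0.256, adjusted p = 0.0271). The receptor adaptor Irs2 was lower, at −0.90 (SE 0.263, adjusted p = 0.0452). The medians of the lists, −0.33, −0.34 and −0.18 in the order given, lay beside −0.14 over all genes.

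Without the arrays that stood apart the 6 h fraction comparison called 2, 2 and 9 genes of these lists, at a gene background of 20.5%. Lower in polysomal RNA were the insulin receptor Insr (−1.03), the secreted glycoprotein Stc1 (−0.85), the kinase Jak1 (−2.08), the cytokine signalling inhibitor Socs3 (−1.37), the adaptors Irs1 (−1.15), Irs2 (−1.04), Grb10 (−1.62) and Crk (−1.32), and the kinases Akt2 (−1.95) and Map2k1 (−0.80). Higher were Gsk3b (1.99), Pdpk1 (1.18) and Map2k2 (1.13). At 1 h the same model called 1, 2 and 6 genes of these lists, at a gene background of 7.81%. Jak1 (−2.01), Akt2 (−2.21), Irs2 (−1.15) and Crk (−0.97) were lower and Gsk3b (1.89) higher, as at 6 h. Also lower were the receptor Igf2r, which takes up Igf2 (−2.07), the lipid kinase Pik3c3 (−0.66) and the ribosomal protein S6 kinase Rps6kb1 (−0.78), and the phosphatase Ptpn6 was higher (1.22).

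Markers of other cell types were read beside the binding proteins, which fibroblasts also make. Of the fibroblast and matrix list 15 of 16 genes were tested, and the summed signal of a number ran from 56711 to 97996 in 6 h polysomal RNA against 73063 to 95216 in 6 h total RNA. It ran from 66432 to 85379 in 1 h polysomal RNA against 49069 to 68591 in 1 h total RNA, from 60187 to 110314 in the polysomal control and from 35305 to 44614 in the control titled 1hr polysome. Between the 6 h fractions Lox was called higher in polysomal RNA (1.73, adjusted p = 0.0312), and Bgn and Sparc lower (−0.71 and −0.94), at a gene background of 9.38%. Without the arrays that stood apart Lox (2.36) and Mgp (0.92) were called higher, at a gene background of 20.5%. Col3a1 (−1.94), Fn1 (−1.53), Col5a2 (−1.31), Lum (−0.99), Sparc (−0.91) and Bgn (−0.73) were called lower there. Macrophage markers, 9 of 15 tested, summed to 7305 to 18940 in 6 h polysomal RNA against 5315 to 8959 in 6 h total RNA. The part of these cells in the Igfbp values was not tested.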

How the data were processed

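The study measured rat skeletal muscle RNA on 36 one-colour oligonucleotide arrays. The values are intensity signals on a linear scale, 1 per probe set and array, taken as deposited from the table of all arrays. The software, background correction and genome build are not given in the sources used here. Array totals had been brought to one level before deposition, with 2% trimmed means of 801.03 to 801.86 per array. The target of that scaling and any centring before it stay unknown.

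From these, 59 control probe sets were left out. Signals under the 40th percentile, 129.5, were set to it, log2 was taken, and testing was limited to probe sets above it on 4 arrays or more. Both arrays of a number (r = 0.897 to 0.981 over probe sets) were averaged to 1 of 18 replicates. The number of arrays limits the precision. Every comparison is a contrast from a single fit of the 6 groups with limma 3.58.1 (R 4.3.3), two-sided, with Benjamini-Hochberg adjustment over 6707 probe sets. This code recovered known changes in simulated data, for probe sets well above the floor and in the 6 h fraction comparison only. Recovery near the floor and in the 1 h groups was not tried.

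Symbols came from the platform annotation: a unique symbol was given for 7006 probe sets, more than 1 for 308 and none for 1426, and only the unique kind was named. Of the symbols 6985 matched a RefSeq rat gene by Entrez identifier. Every member probe set is named, other genes are the 3 most alike to each member and the called genes of 3 pathway lists, and cell types were read from marker lists. Motifs in promoters, the arrays left out and the lists were chosen with earlier results of these data known, as were the members.

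Same-numbered 6 h polysomal and polysomal control replicates deviated together (r = 0.431 to 0.538 in all 4 pairs). Replicates of different numbers were not correlated, so this does not show that numbers are pairs. The main fit held no block for numbers. The other group pairs had r of −0.03 to 0.25. Alternatives changed the floor, filter, scaling, block, arrays, fit, control and replicates.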

Additional observations from a re-analysis of the deposited data

Results flagged for a closer look

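In 6 h polysomal RNA, number 1 lay apart from the other 3 on the Ghr probe set S49003_s_at. Its mean log2 signal was 10.17, and the others lay from 10.73 to 10.80, so the gap to the nearest made up 0.900 of the whole range of the group. The test was run on 38 groups of 4 replicates of the member probe sets, and 25 further groups with a replicate at the floor were not tested. Chance finds about 1 in 20 such groups, and 1 was found here.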

How the results depend on the processing

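The log2 differences of the members, 210 values, were recomputed 4624 times: 4543 stayed on the same side of the threshold, 18 lost a call and 63 gained one. The sign turned in 416, over 124 of the 210 values, of which 0 were called before or after. Of the 2 calls between the 6 h fractions, 1 remained with a floor at a signal of 50 (6.61% of all probe sets called), with no floor and a pseudocount (7.34%), with no filter on dim probe sets (4.46%), with only arrays a (2.4%), and with only the groups compared (1.91%). There were 6 with arrays as samples (13.2%), 5 within numbers 1 and 2 (16.2%), 0 within numbers 3 and 4 (1.09%), 8 without 6 h total numbers 3 and 4 (21.9%), and 7 without these and array 2bA (21.7%). Leaving out each replicate gave 1 to 6 (3.68% to 16.4%), with 6 without 6 h total number 4. The cause was not tested.

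Between the 1 h fractions, where no member was called, the replicate block gave 2 calls (1.79% of all probe sets), arrays as samples 4 (5.43%), and leaving out both sets of arrays 4 (8.83%). When 1 h total RNA was set against its 1hr polysome control, the replicate block, arrays as samples and only arrays a gave 1 call each (Igfbp3 rc_AI009405_s_at, at 0.447%, 1.68% and 0.403% of all). Leaving out array 2bA gave 2 (3.01%), the polysomal control in place of the other 6 (8.41%), and leaving out both sets of arrays 7 (13.9%). With numbers 3 and 4 alone, 6 h against 1 h total RNA had 3 calls (8.72% of all) and the change of the fraction difference 1 (Ghr S49003_s_at, 1.91%). The 6 h total arrays of these numbers are those that stood apart. With numbers 1 and 2 alone the controls differed in 1 (Igf1 X06107_r_at, 1.52, with 1.57% of all called). The replicate block changed no other count of members called. The other counts were 0 in every alternative, leave-one-out included. The 1 h groups hold 2 replicates each, and dim probe sets near the floor allow only bounds.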
